A study of Mus musculus with 18 samples.

Results

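A pair of perturbations of embryonic mouse microglia were taken here as 1 side of a comparison and set against all controls. The question was which genes shift the same way under maternal inflammation and under loss of DAP12, not where the responses differ. All 18 arrays of the study entered, 8 on the perturbed side and 10 on the control side. The rule asked that a gene have 1 sign in LPS minus PBS of each label year and in DAP12KO minus UT, and 1451 of the 11630 tested genes (12.5%) met it. That is the share that 4 even and independent signs would give, and nothing is read from the count.

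The cells were microglia positive for GFP under Cx3cr1 control, sorted from pooled hippocampi of embryos at E17.5 on a C57BL/6 background, and all groups shared this reporter. The LPS group (4 arrays) was taken after maternal inflammation by lipopolysaccharide, a cell wall component of bacteria, and the PBS group (4 arrays) from dams given PBS as their control, both with wild-type embryos. The DAP12KO group (4 arrays) came from untreated DAP12-/- embryos, and the UT group (6 arrays) from untreated wild-type (DAP12+/+) embryos. RNA was pooled per pregnant dam, the sex is recorded as unknown, and a dose or time of LPS was not found in the labels. The Cx3cr1 sort also takes other cells that carry this receptor, such as macrophages at the brain's borders.

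The labels carry a year, whose meaning they do not state, numbered here 1 to 4 in order of time. Year 1 held 1 LPS and 1 PBS array, year 2 held 2 of each, year 3 held 2 UT arrays, and year 4 held 1 LPS, 1 PBS, 4 DAP12KO and 4 UT arrays. DAP12KO arrays were thus in year 4 only. The LPS array of year 4 is labelled 3_2, and whether it repeats the sample of LPS replicate 3 of year 1 is not known. It was counted as its own sample. If it is a repeat, the LPS arm has 3 samples and the differences of years 1 and 4 share 1. The pooled difference is the perturbed minus the control side in a limma fit with label year as a term. In it the LPS and the DAP12KO arm each carried 50% of the weight, and year 3 carried 0%.

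Microglia are the resident macrophages of the brain, seeded from the yolk sac early in development, and they engulf cells and debris and contact growing axons and synapses. DAP12, the product of Tyrobp, is an adaptor without a ligand site of its own. It pairs with TREM2 and with several lectin-like and Siglec receptors and passes their signal to the kinase SYK. Lipopolysaccharide acts through TLR4, which drives NF-kB targets such as Tnf and Il1b and, through type I interferon, a second wave of interferon-induced genes. At this stage of development the hippocampus is rich in neurons, radial glia and growing axons.

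The arrays carried the markers of the labelled cell type, with differences between arrays that bear on the results below. The mean log2 level of 26 tested microglia identity genes was 11.51 and 11.59 in the PBS arrays of year 2, under the 12.53 to 13.42 of the other 16. The same 2 control arrays led in neural RNA, where the mean of 23 neuron genes was 10.52 and 10.58, against 5.88 to 8.92 in the other 16. Xist, the RNA of the inactive X chromosome, stood at 2.21 in 3 control arrays (PBS replicates 1 and 2 of year 2, UT replicate 6 of year 4) and at 12.32 or above in 8 of 8 perturbed arrays. Tyrobp stood at 13.80, 13.83, 13.75 and 14.23 in the arrays labelled DAP12KO and between 14.29 and 14.55 in UT. All 4 DAP12KO arrays were below the 6 UT arrays, but the gene was still bright, and whether its probe set lies in the deleted part was not known, so that it does not settle the genotype. The Gapdh control signal at the 3′ end less that at the 5′ end, a measure of RNA quality, also varied. It was 2.01 to 3.33 (log2) in the LPS and PBS arrays of years 1 and 2, and 1.31 and 2.77 in year 3. In year 4 it was 0.89 to 1.20, except for 2.23 in UT replicate 2. The part of RNA quality in the differences was not tested. In bulk RNA, fewer cells of a type and less RNA per cell cannot be told apart.

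**Figure D1:**
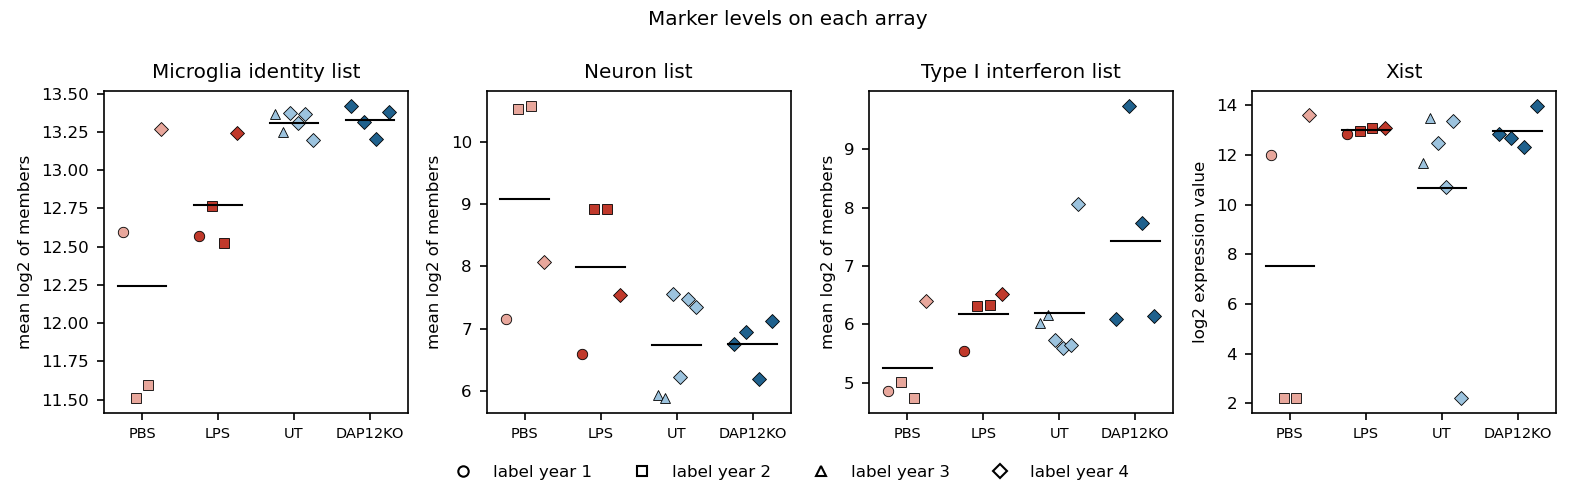
Mean log2 level of the tested members of the microglia identity, neuron and type I interferon lists, and the log2 value of Xist (vertical axes), on each of the 18 arrays by group (horizontal axis). Symbols give the label year and bars the group mean. The PBS arrays of year 2 are lowest for microglia genes and highest for neuron genes, and Xist is at 2.21 in 3 control arrays.

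No gene passed in the pooled comparison. Of 11630 genes, 0 stood higher and 0 lower at an adjusted p under 0.05 (limma, Benjamini-Hochberg; the lowest adjusted p was 0.413), which is 0% of the genes tested. At an unadjusted p under 0.05 there were 350 higher genes (3.01%) and 730 lower genes (6.28%), together 9.29%, where 581.5 in all would be past that p with no differences present. The count of 0 was also found with eBayes without trend, robust eBayes and array weights. Every gene below therefore missed the threshold of the pooled fit. A p that misses the threshold does not show that the sides are alike, and all tests were two-sided.

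The 2 arms taken singly gave little more. LPS minus PBS had 11 genes past the adjusted threshold (0.0946% of those tested), and DAP12KO minus UT had 0, with 637 at an unadjusted p under 0.05 (5.48%). Of the 11, 10 stood lower in LPS, among them Sema3a, a secreted axon guidance cue, and Ptx3, a secreted pattern recognition protein. In the DAP12KO arm the largest difference among the 11 was 0.51 (log2), and the smallest unadjusted p among them there was 0.361. The difference Sema3a showed was -4.51 ± 0.68 (SE) in LPS minus PBS and -0.11 ± 0.68 in DAP12KO minus UT. In the DAP12KO and UT arrays Sema3a stood at 2.27 to 2.72 and Ptx3 at 2.19 to 2.44, at or near 2.19, the lowest value of the table. The pooled values (Sema3a -2.31, Ptx3 -1.79) are thus close to the mean of a large and a near-zero difference. Without the PBS arrays of year 2 they were -1.48 for Sema3a and -0.60 for Ptx3, after adjustment for the mean of 23 neuron markers -1.63 and -0.66, and with the mean of all probe sets -0.92 and -0.90.

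Asked for both arms at once, by the larger of the 2 arms' p, 0 genes passed after adjustment (the lowest adjusted p was 1). With the unadjusted larger p under 0.05 there were 42 genes (0.361% of those tested), 8 higher and 34 lower. Of the 42, 36 had 1 direction in all 4 within-year differences, where 12.5% of all tested genes had. This count follows in part from the choice, since the p and the signs come from the same values. The 8 higher genes differed by 0.36 to 2.45 in the LPS arm and by 0.38 to 3.74 in the DAP12KO arm. The 34 lower genes lay between -4.10 and -0.81 in the LPS arm and between -3.42 and -0.58 in the DAP12KO arm. Within a gene the arms differed by at most 1.40, and the smallest unadjusted p of that difference was 0.201. Both values follow in part from the choice of genes with 1 sign and a low p in each arm. They do not show that the arms are alike. The count was 198 after adjustment for the mean of the neuron markers and 96 with array weights.

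Counting signs alone, 537 genes (4.62%) were higher and 914 (7.86%) lower in all 4 within-year differences, which are LPS minus PBS in years 1, 2 and 4 and DAP12KO minus UT in year 4. Even and independent signs would put 6.25% in each direction and 12.5% in all, so that the total is at that share, the higher genes below it and the lower genes above it. The signs come from the same values as the fit and have no test. The median pooled difference was 0.64 in the higher set and -0.82 in the lower set, with a median of -0.05 over all tested genes. Most had at least 1 small difference. Each of the 4 differences was over 0.5 in 51 of the higher and 155 of the lower genes, over 1 in 4 and 30, and the smallest was under 0.1 in 213 and 293. An unadjusted pooled p under 0.05 was found for 174 of the higher and 374 of the lower genes. Over all genes the difference of the 2 arms had the same sign in 51.9%, with a Pearson r of 0.09, as a description over genes, which are not replicates.

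**Figure D2:**
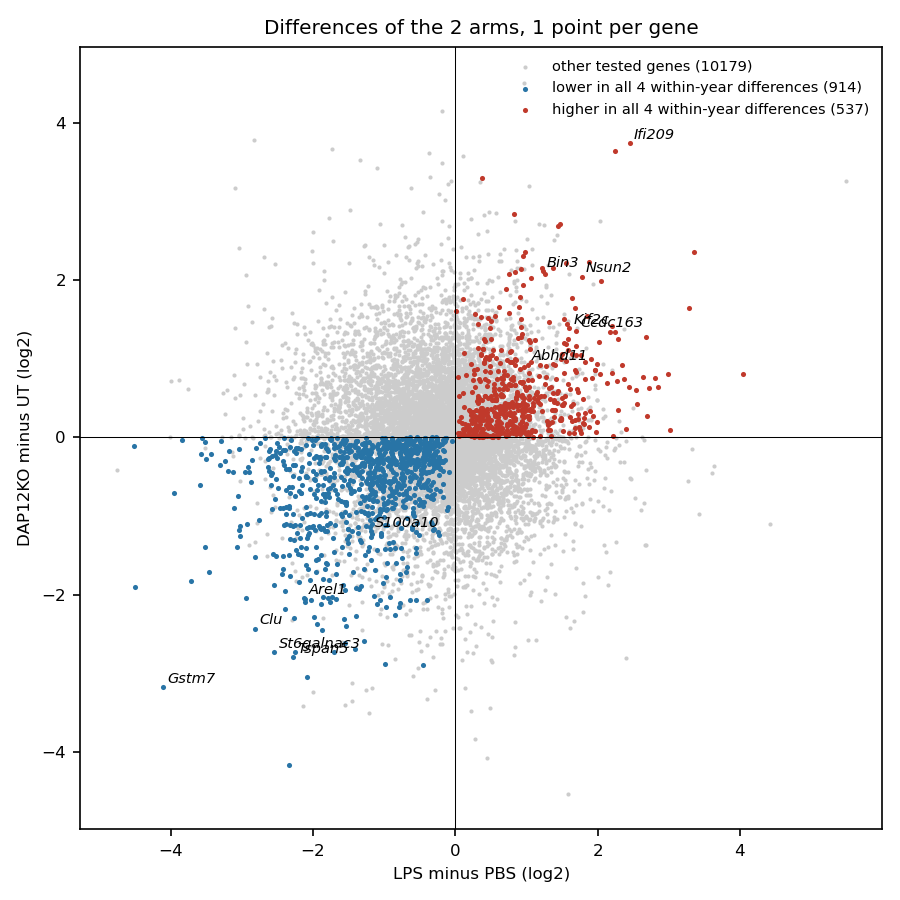
Difference of each gene in LPS minus PBS (horizontal axis, log2) and in DAP12KO minus UT (vertical axis, log2), both adjusted for label year. Red points are the 537 genes higher and blue points the 914 genes lower in all 4 within-year differences, which fall in the upper right and lower left by construction, and grey points are the other tested genes.

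A second probe set gave a check within the same arrays. Of the 537 higher genes, 273 had another probe set of the same symbol, and in 33 of these (12.1%) it was again higher in all 4 differences. Over all 5993 genes with a second probe set the share was 4.96%. Of the 914 lower genes, 544 had one, and 92 (16.9%) were again lower, against 7.09% over all. The pooled sign was the same in 71.8% of the higher and 70.2% of the lower genes, against 62.2% over all. Probe sets of a gene share the RNA sample and can share probes, so they are not replicates.

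Among the higher genes, Ifi209 had the lowest p of the pooled fit. It encodes a member of the interferon-induced PYHIN family of nucleic acid sensors, whose genes lie side by side and are alike in sequence, so that its probes may also read a neighbour. In LPS arrays it stood at 6.71 (year 1), 4.26 and 4.54 (year 2) and 7.50 (year 4), and in PBS arrays at 2.48, 2.73, 2.39 and 5.60 in the same order. In DAP12KO arrays it was 9.03, 9.19, 6.81 and 6.26, and in UT arrays 2.33 to 6.75 with a median of 3.14. Each perturbed array was above the mean of its own year's controls, while the sides overlapped through UT replicate 2 and PBS replicate 2 of year 4. Since Ifi209 was picked for 1 sign in all 4 within-year differences, this position of the arrays follows in part from the choice. The difference was 3.10 ± 0.62 (SE; adjusted p = 0.413), made of 2.45 ± 0.88 in the LPS arm and 3.74 ± 0.88 in the DAP12KO arm. A second probe set of Ifi209 was also higher in all 4 differences, by 1.92 in the pooled fit.

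Nsun2, an enzyme that methylates cytosines of transfer RNA and other RNAs, had the lowest larger p of the 2 arms among the higher genes (0.0119). It stood at 7.92, 9.24, 8.62 and 11.29 in LPS arrays against 4.10, 9.06, 7.61 and 9.19 in PBS arrays of the same years. DAP12KO arrays had 9.20, 9.61, 11.57 and 10.36, and UT arrays 7.64 to 10.67 with a median of 8.63. The highest UT values were those of year 3, which has no perturbed array, and within year 4 the DAP12KO and UT arrays did not overlap. The pooled difference of Nsun2 was 1.91 ± 0.45 (adjusted p = 0.413), with the arms at 1.78 and 2.04.

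The promoters of these 2 genes are shown because they head the higher side of the comparison, with matches to 6 short motifs in capitals. The windows run from 250 bases before to 50 after the start, 5′ to 3′ on the gene's strand, from RefSeq (GRCm38.p6). Ifi209 lies at chr1:173630609-173630908 (+) and Nsun2 at chr13:69611766-69612065 (+).
Ifi209: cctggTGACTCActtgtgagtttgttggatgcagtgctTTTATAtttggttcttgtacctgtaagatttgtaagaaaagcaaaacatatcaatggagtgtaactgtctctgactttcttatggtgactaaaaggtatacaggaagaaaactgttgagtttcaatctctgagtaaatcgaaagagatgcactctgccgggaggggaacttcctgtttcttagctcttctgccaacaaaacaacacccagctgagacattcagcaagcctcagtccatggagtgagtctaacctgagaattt
Nsun2: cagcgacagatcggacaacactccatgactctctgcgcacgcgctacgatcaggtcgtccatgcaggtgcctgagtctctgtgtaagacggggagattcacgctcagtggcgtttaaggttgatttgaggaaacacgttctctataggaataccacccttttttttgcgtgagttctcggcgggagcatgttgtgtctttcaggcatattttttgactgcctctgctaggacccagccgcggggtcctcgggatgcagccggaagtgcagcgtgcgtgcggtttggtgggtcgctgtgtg
The capitals in Ifi209 mark an AP-1 site (TGANTCA) and a TATA box (TATAAA, here on the other strand), and the Nsun2 window held no match.

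Both strands were searched for the TATA box (TATAAA), the CCAAT box (its name being its letters), the GC box (GGGCGG), the E box (CACGTG), the AP-1 site (TGANTCA) and the core of the interferon response element. Of all 32851 windows listed, 13.6% held the TATA box, 37.4% CCAAT, 35.7% the GC box, 7.15% the E box, 7.81% the AP-1 site and 3.44% the interferon core. Promoter windows were found for 9465 tested genes, 444 of the higher set and 734 of the lower set. The interferon core was held by 3.83% of windows in the higher set, 2.59% in the lower set and 3.001% over the tested genes. For CCAAT the shares were 39.9%, 39.1% and 38.7%, and for the GC box 66.7%, 68.0% and 65.0%. The AP-1 site was in 4.73%, 3.815% and 4.53%, the TATA box in 8.11%, 6.40% and 7.005%, and the E box in 11.3%, 8.72% and 10.3%. The 3 sets thus lay within a few percentage points of each other in every motif, and a match is a description of letters, not a site in use.

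Kif2c, a kinesin that takes apart microtubules at the centromere in mitosis, stood higher in both arms. Its LPS values were 11.58, 9.03, 9.20 and 10.54 against 8.88, 8.22, 7.21 and 9.64 in PBS. Its DAP12KO values were 11.02, 11.91, 11.12 and 9.57, and UT ran from 8.18 to 10.67 with a median of 9.47. All 8 perturbed arrays were above the mean of their year's controls, in part because Kif2c was picked for 1 direction, and the sides overlapped. The pooled difference was 1.497 ± 0.37 (adjusted p = 0.424), with 1.60 ± 0.56 and 1.39 ± 0.56 in the arms, and 0.44 with the mean of all its probe sets. The second probe set of Kif2c was at 0.76 in the pooled fit but at -1.10 in LPS minus PBS of year 4. Other mitosis genes were spread around 0. Of 29 tested members of the mitosis and DNA replication list, 15 were higher, where 45.6% of all tested genes were, and the median was 0.00. Of the 29, 7 were higher in all 4 differences, against 4.62% of all tested genes. Aurka, a spindle kinase, was at 1.41 ± 0.42 (adjusted p = 0.459) and Mki67, a marker of cycling cells, at 0.25 ± 0.11 (adjusted p = 0.521), and Aurka was at 0.58 with the mean of its probe sets.

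Bin3, a BAR domain protein of membranes and the cytoskeleton, stood at 7.50, 8.43, 6.89 and 9.39 in LPS arrays against 4.81, 7.92, 6.77 and 7.78 in PBS arrays. Its DAP12KO values of 10.13, 10.01, 9.49 and 8.56 were above every UT array of year 4, while the UT arrays of year 3 had 9.30 and 9.62. The pooled difference of Bin3 was 1.67 ± 0.39 (adjusted p = 0.413). Ccdc163 stood at 6.60, 5.73, 5.41 and 6.96 in LPS arrays, each above the 4.26, 4.85, 3.96 and 4.85 of PBS, and at 5.71 to 8.01 in DAP12KO against 4.71 to 6.31 in UT. Its pooled difference was 1.52 ± 0.39 (adjusted p = 0.431), and a second probe set of Ccdc163 was also higher in all 4, by 0.53. Abhd11, a mitochondrial hydrolase, differed by 0.97 ± 0.29 (adjusted p = 0.459), and its DAP12KO values of 11.25, 11.04, 10.57 and 11.57 were above the UT arrays of year 4 at 10.04 to 10.51. The highest UT array of Abhd11, of year 3, was at 10.67, above the lowest DAP12KO array. Bin3, Ccdc163 and Abhd11 were picked for a low p in both arms and 1 direction. The positions of their arrays follow in part from that choice.

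**Figure D3:**
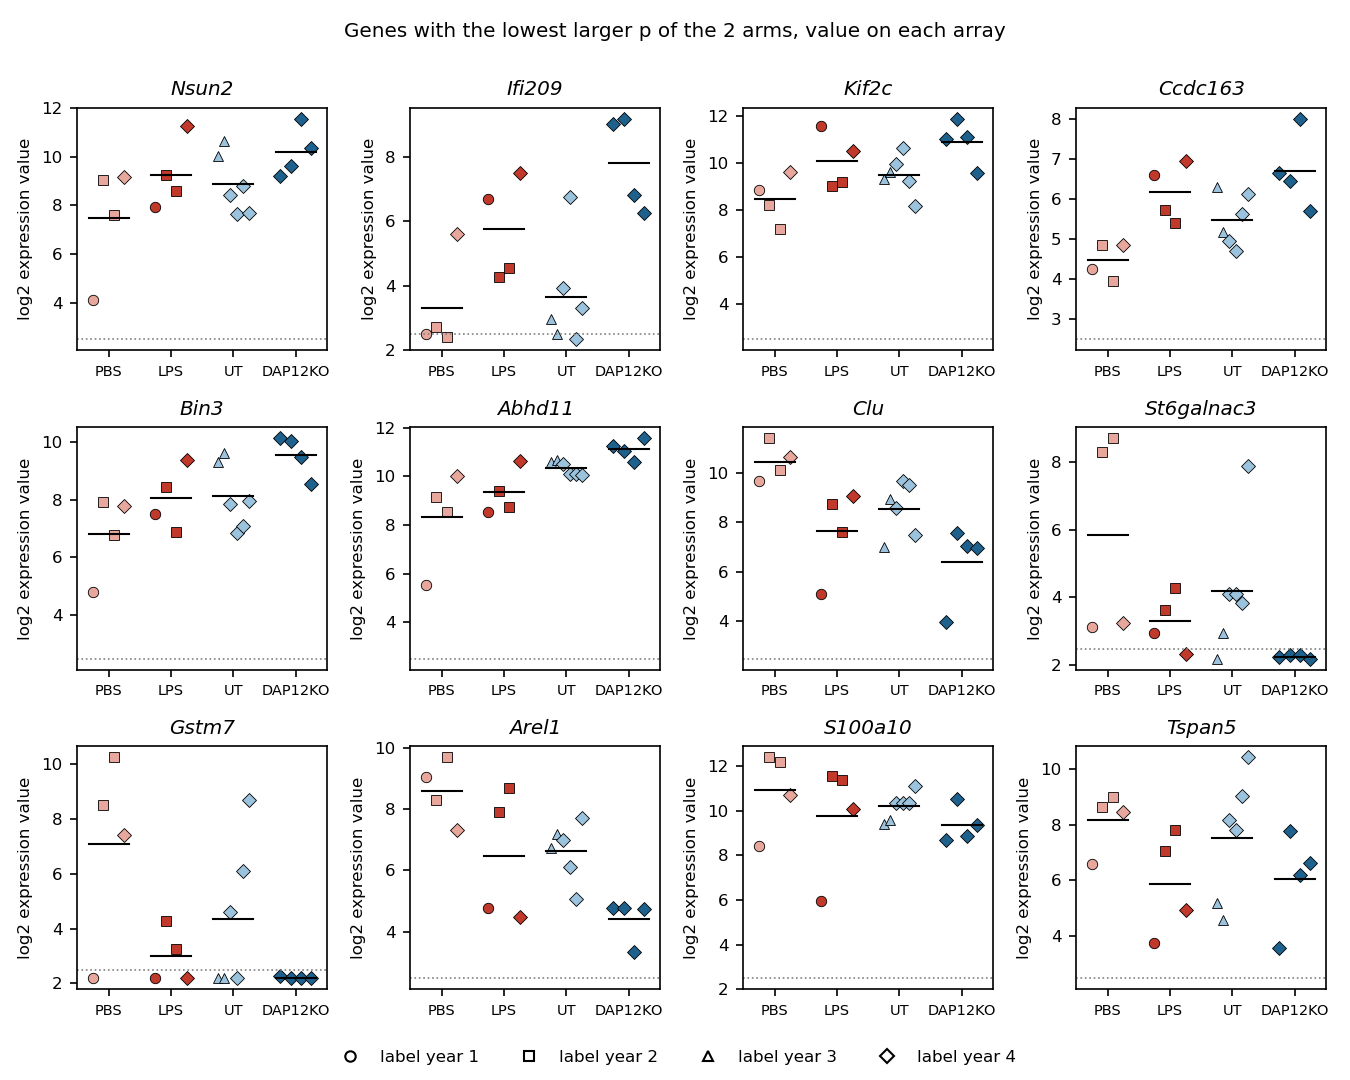
Log2 value on each array (vertical axis) for the 6 higher and 6 lower genes with the lowest larger p of the 2 arms among named genes of 1 direction, by group (horizontal axis). Symbols give the label year, bars the group mean, and the dotted line the filter threshold of 2.49. All 12 genes overlap between the perturbed and the control side, and Gstm7 and St6galnac3 are at or near the lowest value in all 4 DAP12KO arrays.

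The remaining higher genes by pooled p had values that varied between the arms or the years. H2-DMb2, a chaperone that loads peptide on MHC class II and has a close paralog beside it, was at 2.95 ± 0.73 (adjusted p = 0.424). It was at 2.25 in the LPS and 3.65 in the DAP12KO arm, but only at 0.12 in year 1. Its second probe set was at 1.98 in the pooled fit but at -1.03 in LPS minus PBS of year 4. Plagl2 (a zinc finger transcription factor, 1.17), Klf2 (a transcription factor that restrains inflammation, 1.70) and Mapkapk3 (a kinase downstream of stress MAP kinases, 1.58) had pooled adjusted p of 0.413, 0.424 and 0.424 and a DAP12KO minus UT of 0.62, 0.77 and 0.61. Their LPS minus PBS was larger, at 1.72, 2.63 and 2.55, with adjusted p of 0.0854, 0.0894 and 0.0648 in that arm. Nfkbid, an atypical inhibitor of NF-kB, was at 1.42 ± 0.40 (adjusted p = 0.459) and at 0.89 without the PBS arrays of year 2. With the mean of all its probe sets Plagl2 was at 0.50 and Mapkapk3 at 0.99. The tests of the difference between arms passed for 0 genes (943, or 8.11%, at an unadjusted p under 0.05), so that a difference in size between the arms was not shown for any of them.

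**Figure D4:**
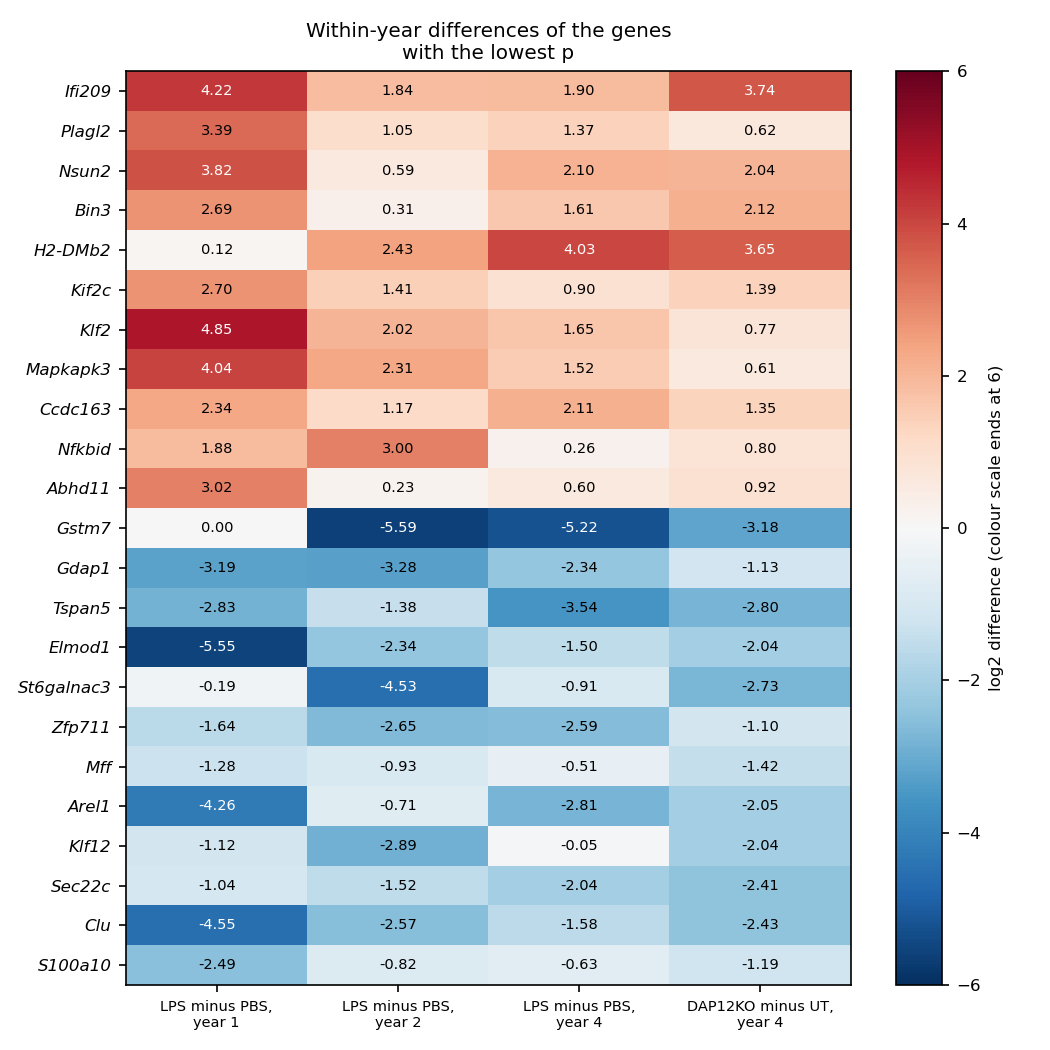
Within-year log2 differences (cells, colour and number) of the genes with the lowest pooled p or the lowest larger p (rows), in LPS minus PBS of years 1, 2 and 4 and DAP12KO minus UT of year 4 (columns). The upper 11 genes are positive and the lower 12 negative in all columns, which is how they were chosen, except that Gstm7 in year 1 is at the lowest value in both groups and shown as 0.00, and year 1 and the LPS comparison of year 4 rest on 1 array per group.

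Among the lower genes, Clu had the lowest larger p (0.00855). It encodes clusterin, a secreted chaperone that astrocytes and choroid plexus make in abundance. LPS arrays stood at 5.12, 8.74, 7.62 and 9.05 against 9.66, 11.40, 10.10 and 10.63 in PBS, with no overlap between these groups. DAP12KO arrays stood at 3.96, 7.58, 7.03 and 6.98 against 7.50 to 9.67 in the UT arrays of year 4 and 7.002 and 8.93 in those of year 3. Since Clu was picked for a low p in both arms and 1 direction, the separation of LPS from PBS follows in part from the choice. The pooled difference of Clu was -2.62 ± 0.64 (adjusted p = 0.413), with -2.82 ± 0.81 and -2.43 ± 0.81 in the arms. It was -2.64 without the PBS arrays of year 2 and -2.22 after adjustment for the mean of the neuron markers, and a second probe set was lower in all 4, by -2.81.

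St6galnac3, a sialyltransferase that builds gangliosides and sialylated glycans, stood at 2.94, 3.63, 4.29 and 2.34 in LPS arrays and 3.14, 8.29, 8.70 and 3.24 in PBS arrays. In DAP12KO it was 2.25, 2.30, 2.30 and 2.19, all under the filter threshold of 2.49, and in UT it ran from 2.19 to 7.88 with a median of 3.98. The high control arrays were the PBS arrays of year 2 and UT replicate 6, the same 3 in which Xist was at 2.21. The pooled difference of St6galnac3 was -2.64 ± 0.59 (adjusted p = 0.413) with all arrays and -1.31 without those 3. Gstm7, a glutathione S-transferase of the mu class with close paralogs beside it, was high in some of the same arrays, at 2.19, 4.28, 3.27 and 2.19 in LPS against 2.19, 8.51, 10.22 and 7.42 in PBS. In DAP12KO it stood at 2.19 to 2.26 and in UT at 2.19 to 8.68, with 3 of 6 UT arrays near the lowest value. Its pooled difference was -3.64 ± 0.77 (adjusted p = 0.413), and -2.34 without the same 3 arrays. In year 1 both Gstm7 values were at the lowest value, so its sign there has no meaning.

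Arel1, a ubiquitin ligase that limits apoptosis, differed by -2.12 ± 0.72 in the LPS arm and -2.05 ± 0.72 in the DAP12KO arm. The LPS values were 4.78, 7.90, 8.67 and 4.50 against 9.04, 8.31, 9.68 and 7.31 in PBS. The DAP12KO values of 4.78, 4.78, 3.34 and 4.76 were all under the lowest UT array (5.06; median 6.85; highest 7.71). Arel1 was picked for a low p in both arms and 1 direction, so this separation of DAP12KO from UT follows in part from the choice. The pooled difference of Arel1 was -2.08 ± 0.49 (adjusted p = 0.413) and grew to -2.54 without the PBS arrays of year 2. Its second probe set did not repeat this, with a pooled difference of -0.11 and signs that varied between years. With the mean of all probe sets Arel1 was at -1.10, St6galnac3 at -0.92 and Gstm7 at -1.82.

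The promoters of St6galnac3, at chr3:153725084-153725383 (-), and Arel1, at chr12:84946874-84947173 (-), stand for the lower side, being the first of its genes, by larger p, with exactly 1 start in the table. Capitals again mark matches to the 6 motifs, from the same RefSeq windows.
St6galnac3: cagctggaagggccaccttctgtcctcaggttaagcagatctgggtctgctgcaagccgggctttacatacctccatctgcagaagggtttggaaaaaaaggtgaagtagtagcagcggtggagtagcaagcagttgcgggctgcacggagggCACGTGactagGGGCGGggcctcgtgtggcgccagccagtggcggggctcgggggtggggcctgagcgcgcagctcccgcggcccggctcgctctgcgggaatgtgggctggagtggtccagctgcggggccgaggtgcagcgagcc
Arel1: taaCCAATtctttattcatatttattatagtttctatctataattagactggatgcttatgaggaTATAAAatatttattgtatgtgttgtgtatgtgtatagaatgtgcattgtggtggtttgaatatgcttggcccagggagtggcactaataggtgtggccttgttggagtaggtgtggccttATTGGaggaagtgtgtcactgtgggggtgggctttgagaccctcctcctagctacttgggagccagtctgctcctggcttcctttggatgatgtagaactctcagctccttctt
St6galnac3 held an E box and a GC box in a window of 66.0% GC, and Arel1 a TATA box and 2 CCAAT boxes in one of 42.3% GC. The 4 windows shown share no motif that is in all of them.

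S100a10, the light chain partner of annexin A2, differed by -1.19 ± 0.42 in each arm and by -1.19 ± 0.29 in the pooled fit (adjusted p = 0.413). Its LPS values were 5.93, 11.55, 11.39 and 10.10 against 8.42, 12.39, 12.20 and 10.73 in PBS. Its DAP12KO values were 8.71, 10.53, 8.85 and 9.35, and UT ran from 9.41 to 11.12 with a median of 10.36. All 8 perturbed arrays were under the mean of their year's controls, in part because S100a10 was picked for 1 direction. However, the second probe set of S100a10 was higher in DAP12KO by 0.17, and the mean of its probe sets gave -0.59. Tspan5, a tetraspanin that escorts the ADAM10 protease, stood at 3.75, 7.04, 7.81 and 4.93 in LPS against 6.59, 8.62, 8.98 and 8.46 in PBS. In DAP12KO it was 3.59, 7.78, 6.20 and 6.63, all under the UT arrays of year 4 (7.80 to 10.41). The lowest UT array, of year 3, stood at 4.57, so that the UT arrays of both years together overlapped with DAP12KO. Tspan5 was also picked for 1 direction and a low p in both arms, so its separation within year 4 follows in part from that. The pooled difference of Tspan5 was -2.54 ± 0.56 (adjusted p = 0.413). Its second probe set was at -1.04 in the pooled fit but higher by 1.00 in LPS minus PBS of year 4.

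The other lower genes by pooled p came from several compartments. Gdap1 (-2.08) and Mff (-1.17) encode proteins of the outer mitochondrial membrane, the latter a receptor for mitochondrial fission. Elmod1 (-2.49) acts on small ARF GTPases, Sec22c (-1.97) sits in the membrane of the endoplasmic reticulum, and Zfp711 (-1.74) and Klf12 (-1.89) are zinc finger proteins. Adjusted p was 0.413 for all 6, and all overlapped between the sides. Mff was bright throughout, at 10.04 to 11.77 in DAP12KO and 11.81 to 13.01 in UT, which did not overlap. It was picked for a low pooled p and 1 direction, so this separation follows in part from the choice. With the mean of all its probe sets Mff was at -0.55. Gdap1 stood at 3.34 to 7.56 in LPS and 5.68 to 10.76 in PBS but at 3.40 to 4.93 in DAP12KO, and its DAP12KO minus UT was -1.13 ± 0.59. With the mean of all probe sets Gdap1 was at -1.24 and Klf12 at -1.09, and after adjustment for the mean of the neuron markers Zfp711 was at -1.02. Second probe sets of Mff, Klf12 and Sec22c were lower in the pooled fit but did not have 1 direction. Mff was there at 0.84 in LPS minus PBS of year 4, Klf12 at 0.04 in DAP12KO minus UT and Sec22c at 3.22 in LPS minus PBS of year 1.

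By function, members of the interferon, cytokine, antigen, complement, phagocytosis, microglia identity, DAP12 and immediate early lists stood mostly higher, and none of them passed in the pooled fit. The type I interferon list had 17 of 19 tested members higher, with a median of 1.19 (0.72 in LPS minus PBS, 1.27 in DAP12KO minus UT), where 45.6% of all tested genes were higher. Of the 19, 5 were higher in all 4 within-year differences, where 4.62% of all tested genes were. Ifit3, an antiviral protein, was at 1.37 ± 0.56, Ifi35 at 1.32 ± 0.56 and Usp18, a brake on interferon signalling, at 1.98 ± 0.86, each with adjusted p = 0.511. Usp18 was at 1.35 without DAP12KO replicate 2. The second probe set of Ifi35 was at 1.17 in the pooled fit but at -1.81 and -1.55 in LPS minus PBS of years 1 and 4. High values lay in a few arrays. The list mean was 9.75 and 7.74 in DAP12KO replicates 2 and 4 but 6.09 and 6.14 in the other 2, and 8.05 in UT replicate 6 against 5.59 to 6.16 in the other UT arrays. Without DAP12KO replicate 2 the median was 0.75. In the LPS arm the list mean was 5.55, 6.32, 6.33 and 6.53 against 4.86, 5.02, 4.74 and 6.40 in PBS of the same years, higher in each year.

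The list of inflammatory cytokines and NF-kB targets had 16 of 21 members higher, where 45.6% of all tested genes were. Its median was 0.63 (0.82 in the LPS and 0.41 in the DAP12KO arm). Of its members, 8 were higher in all 4 differences, against 4.62% of all tested genes. Tnf, the main early cytokine of this pathway, stood at 7.13 in LPS of year 1, at 2.85 and 2.92 in year 2 and at 4.08 in year 4, against 2.67 to 2.85 in PBS. In DAP12KO it was 2.76, 7.09, 7.03 and 6.32, and in UT 2.69 to 6.24 with a median of 3.45. Tnf was above the mean of its year's controls in 6 of 8 perturbed arrays, the sides overlapped, and its pooled difference was 2.07 ± 0.63 (adjusted p = 0.459). Il1b, which encodes interleukin-1 beta, was at 2.58, 10.48, 9.18 and 10.44 in DAP12KO against 2.88 to 8.97 in UT, and its pooled difference was 2.09 ± 1.02 (adjusted p = 0.545). Il1a stood higher in 8 of 8 perturbed arrays than the mean of its year's controls, in part because it was picked by pooled p. Its pooled difference was 0.98 ± 0.31 (adjusted p = 0.459), and 0.52 after adjustment for the mean of the neuron markers. Ptx3, on the same list, was the member lower in all 4 differences.

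Antigen presentation genes had 11 of 14 members higher, where 45.6% of all tested genes were, and a median of 0.30. H2-K1 was at 0.65 ± 0.20 (adjusted p = 0.459) and H2-D1 at 0.79 ± 0.32 (adjusted p = 0.511), both MHC class I heavy chains with close paralogs. The list median was -0.08 without the PBS arrays of year 2, and H2-D1 was at 0.45 with the mean of its probe sets. Immediate early genes had 19 of 22 higher and a median of 0.17, complement genes 8 of 12 and 0.20, and phagocytosis and lysosome genes 19 of 26 and 0.10. Lgmn, a lysosomal protease, was at 0.47 ± 0.17 (adjusted p = 0.499) and C1qc, a chain of the first complement component, at 0.22 ± 0.13 (adjusted p = 0.585). Without the PBS arrays of year 2 the phagocytosis median was -0.08, the complement median 0.06 and the immediate early median 0.11, and Lgmn was at 0.19 and C1qc at 0.06. In the DAP12KO arm the medians of the complement and phagocytosis lists were 0.02 and -0.02.

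Microglia identity genes and DAP12 signalling genes stood higher in the LPS arm, where the difference lay in year 2. The identity list had 24 of 26 members higher, where 45.6% of all tested genes were. Its median was 0.24, with 0.44 in the LPS arm and 0.01 in the DAP12KO arm. Within years the LPS medians were -0.02 in year 1, 0.99 in year 2 and -0.05 in year 4, and the pooled median was -0.01 without the PBS arrays of year 2. The DAP12 list had 12 of 16 members higher with a median of 0.41, and -0.00 without those arrays. Trem2, the receptor that signals through DAP12, was at 0.75 ± 0.28 (adjusted p = 0.499), and Plcg2, the phospholipase downstream of it, at 0.71 ± 0.23 (adjusted p = 0.459). Trem2 stood at 13.25 to 13.64 in DAP12KO and 12.48 to 13.39 in UT, which overlapped. Without the PBS arrays of year 2, Trem2 was at 0.33, Plcg2 at 0.42 and Itgam at 0.49. Itgam, a complement receptor chain, was at 2.25 ± 0.43 in the LPS arm (adjusted p = 0.0648) and -0.00 ± 0.43 in the DAP12KO arm.

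**Figure D5:**
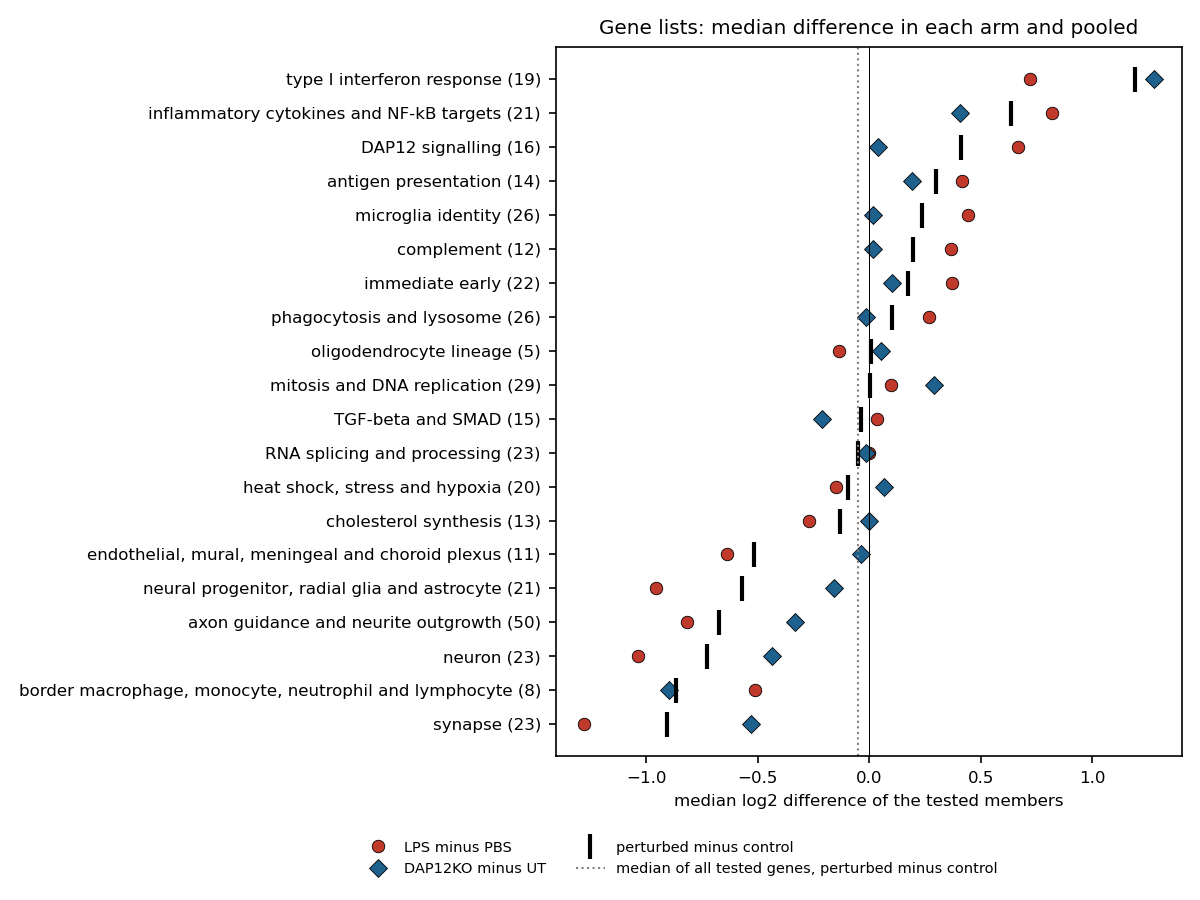
Median log2 difference of the tested members of 20 gene lists (rows, number of tested members in brackets) in LPS minus PBS, in DAP12KO minus UT and in the pooled comparison (horizontal axis). The interferon list is highest and the synapse list lowest in the pooled comparison, and for the neural lists the LPS arm lies further from 0 than the DAP12KO arm.

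The neural lists stood mostly lower, where 45.6% of all tested genes were higher. Of 23 tested synapse genes 21 were lower, with a median of -0.90 (-1.28 in the LPS and -0.53 in the DAP12KO arm), and of 23 neuron genes 19 were lower, with a median of -0.73 (-1.03 and -0.44). For axon guidance and neurite outgrowth 41 of 50 genes were lower, with a median of -0.67, and progenitor, radial glia and astrocyte genes 15 of 21 and -0.57. None passed the pooled test. By the signs of the arms, 17 of 23 synapse genes, 17 of 23 neuron genes and 31 of 50 axon genes were lower in both arms. In all 4 within-year differences 8 synapse, 8 neuron and 10 axon genes were lower, where 7.86% of all tested genes were.

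Tbr1, a transcription factor of young cortical and hippocampal neurons, was nearly equal in the arms, at -1.77 ± 0.73 and -1.82 ± 0.73, and its pooled difference was -1.79 ± 0.57 (adjusted p = 0.459). Its LPS values were 6.26, 8.06, 6.26 and 6.68 against 6.40, 10.21, 9.81 and 7.95 in PBS, and its DAP12KO values 2.78, 5.45, 4.62 and 5.13 against 4.98 to 7.23 in the UT arrays of year 4, with overlap. Stx1a, a syntaxin of synaptic vesicle release, was at -3.25 ± 0.99 (adjusted p = 0.459). It stood at 2.28, 2.28 and 2.65 in 3 DAP12KO arrays, at 10.31 in DAP12KO replicate 4, and at 6.96 to 9.71 in UT. Plxna2, a semaphorin receptor, was at -2.14 ± 0.98 and -3.42 ± 0.98 in the arms and -2.78 ± 0.78 in the pooled fit (adjusted p = 0.459), but at 0.29 in LPS minus PBS of year 4. Mdk, a heparin-binding growth factor of the developing brain, was at -1.53 ± 0.40 (adjusted p = 0.459), and Dcx, a microtubule protein of migrating neurons, at -0.90 ± 0.32 (adjusted p = 0.478). After adjustment for the mean of the neuron markers Tbr1 was at -0.71, Plxna2 at -1.37 and Dcx at -0.13, and with the mean of all its probe sets Stx1a was at -1.69.

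These neural values were smaller without the PBS arrays of year 2, which stood highest in neuron genes. Without those 2 arrays the medians were -0.64 for synapse, -0.48 for neuron, -0.34 for axon and -0.09 for progenitor genes, and the count of lower genes at an unadjusted p under 0.05 was 427 in place of 730. After adjustment for the mean of the neuron list, which shares members and cells with these lists, the medians were -0.24, -0.09, -0.25 and 0.13. Within year 4 the neuron list mean was 6.19 to 7.13 in DAP12KO and 6.23 to 7.56 in UT, which overlapped. Synapse list means in year 4 were 4.84 to 4.99 in DAP12KO and 5.03 to 6.03 in UT, which did not overlap, while the UT arrays of year 3 were at 4.58 and 4.86. The part of other cells in these differences was not tested beyond these values.

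The endothelial and the border macrophage lists also stood mostly lower, and the other lists of cells and of general functions lay nearer to 0. Endothelial, mural, meningeal and choroid plexus genes had 9 of 11 tested members lower, where 45.6% of all tested genes were higher. Their median was -0.51 (-0.09 without the PBS arrays of year 2). Border macrophage, monocyte, neutrophil and lymphocyte genes had 7 of 8 lower and a median of -0.86, which lay at -0.90 in the DAP12KO and -0.51 in the LPS arm. It was -1.21 without the PBS arrays of year 2 and -0.00 with no filter on low values. Lyve1, a marker of macrophages at vessels and meninges, stood at 6.51, 8.09, 8.84 and 8.40 in DAP12KO against 8.81 to 12.16 in the UT arrays of year 4, with overlap at the lowest UT array. That is a difference of -2.72 ± 0.82, beside -0.48 ± 0.82 in the LPS arm. Its pooled value was -1.60 ± 0.75 (adjusted p = 0.536). Mrc1, the mannose receptor of the same cells, was at -0.41 ± 0.19 (adjusted p = 0.538). Plac8 was the 1 member of this list that went the other way, at 1.63, and it was higher in all 4 within-year differences. After adjustment for the mean of the neuron markers Lyve1 was at -1.02 and Mrc1 at -0.27.

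Of the oligodendrocyte list 5 of 12 members and of the erythroid list 2 of 10 were tested. The 5 oligodendrocyte genes had 3 members higher and 2 lower, with a median of 0.01, so that Olig1 does not stand for the list. Olig1, an oligodendrocyte transcription factor, stood at 8.65 and 8.77 in the PBS arrays of year 2, at 3.53 in that of year 4 and at 2.20 to 2.54 in all others. Medians were -0.10 for heat shock, stress and hypoxia genes (13 of 20 lower), -0.13 for cholesterol synthesis (9 of 13 lower), -0.04 for TGF-beta and SMAD genes (8 of 15 lower) and -0.05 for RNA splicing (13 of 23 lower). These lie close to the median of -0.05 over all genes, of which 45.6% were higher. Xist itself was at 4.37 ± 1.48 (adjusted p = 0.464), and at 0.51 without the 3 control arrays where it stood at 2.21. The sex-linked list had 2 of 4 tested members higher.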

How the data were processed

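RNA of FACS-sorted microglia was amplified and hybridized on Affymetrix whole-genome mouse expression arrays, per the labels' protocols. The values used are the log2 expression values deposited by the authors, made with RMA per the submitters' processing notes. RMA corrects background, normalizes quantiles and summarizes probes, with a version not given in the sources used here. The lowest log2 value, 2.19, was shared by many probe sets, so that low genes have a compressed range.

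Of 45101 probe sets, 34958 had 1 gene symbol, 932 several and 9211 none in GEO's platform annotation. The brightest probe set by mean over all arrays stood for each of 18194 genes. Genes whose mean fell below 2.49, the 40th percentile over probe sets, were left out, which left 11630, and values under it are called near the floor.

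The pooled fit was limma (version 3.58.1, R 4.3.3) on side and label year with 13 residual degrees of freedom, and the arms came from a fit on 4 groups and label year with 11. Both used eBayes with a trend, with Benjamini-Hochberg adjustment over all tested genes and a threshold of 0.05. Label year was an additive term, and the within-year differences are plain differences of means. The arrays were taken as separate samples because RNA was pooled per dam, although LPS replicate 3_2 could be a repeat of LPS replicate 3. Their number limits the precision.

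Named genes were those past the threshold with 1 direction, or, none passing, the 10 per direction with the lowest p and 1 direction. To these were added the 6 per direction with the lowest larger p of the arms and 1 direction (clone and predicted symbols skipped), the 3 members of each of 22 lists with the lowest pooled p, and 12 genes fixed by name, 92 genes in all. Mff, Elmod1, Sec22c, Zfp711, Klf12 and the others named by pooled p fall under this rule. The genes compared, the lists and the rule were chosen with earlier results of these data known. Alternatives were the filter, the probe set summary, quantile normalization, the year term, array weights, eBayes settings, equal arm weights, a neuron marker covariate, a replicate block, a floor, and leaving out arrays or years. Promoter windows came from RefSeq (GRCm38.p6). Figures were drawn with matplotlib 3.10.9.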

Additional observations from a re-analysis of the deposited data

Results flagged for a closer look

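The values here are log2 levels of 1 array that stood apart from the rest of its group, by the gap to the nearest array against the group's range (Dixon's test). Of 456 group tests 64 were so marked, and chance marks about 1 in 20. That rate does not hold where most arrays of a group sit at the lowest values, since a tiny gap is then marked. Cldn5 in LPS replicate 1 of year 2, for example, was at 2.322 with the nearest array at 2.318. Olig1 in DAP12KO replicate 4 was at 2.196 with the nearest at 2.237. Such marks near the floor have no measured size. Among the 92 named genes, 0 had arms of opposite sign on every array and 0 passed in the difference of the arms. Most of them were picked for 1 direction or a low pooled p, which favours arms of the same sign, so nothing is read from this. Over all tested genes 0 passed in that difference as well.

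UT replicate 6 of year 4 stood apart in most values of any array. Its mean over the type I interferon list was 8.05 and over the erythroid list 3.10. Its single genes were Ifit3 at 11.26, Usp18 at 5.004, Serping1 at 3.36, St6galnac3 at 7.88, Ptx3 at 2.44 and Alas2 at 3.89, all high, and Mapkapk3 at 8.59 and Xist at 2.21, both low. In PBS replicate 2 of year 4 the interferon list mean was 6.40, with Ifi209 at 5.601, Usp18 at 2.63, H2-K1 at 11.67, Mag at 2.73, Kdm5d at 3.61 and Csf3r at 10.17. PBS replicate 1 of year 2 had Aif1 at 13.52 and Pdgfra at 5.87, and PBS replicate 2 of year 2 had Birc5 at 9.30. PBS replicate 4 of year 1 had Tnf at 2.67, Ifi35 at 2.28 and Rnpc3 at 13.36.

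Among the other UT arrays, replicate 2 of year 4 had Ifi209 at 6.75, Kcnj8 at 2.89, Cldn5 at 4.10, Rnpc3 at 11.91 and Sema3a at 2.72. Replicate 1 of year 4 had Nlgn3 at 3.86. Replicate 4 of year 3 had an oligodendrocyte list mean of 4.82, Mag at 5.598 and Adm at 5.99.

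Of the DAP12KO arrays, replicate 1 had an immediate early list mean of 9.86, with Clu at 3.96, Il1b at 2.58, Plac8 at 5.59, Plcg2 at 12.15 and Mdk at 11.30. Replicate 2 had Usp18 at 8.99, Psmb9 at 12.28, Pdgfra at 3.10, Mag at 4.77, Sema3a at 2.27 and a sex-linked list mean of 9.64. Replicate 4 had Plagl2 at 12.81, Arel1 at 3.34, Sec22c at 2.25, Elavl3 at 2.28, Stx1a at 10.31, Olig1 at 2.20 and Tgfb2 at 3.67, and replicate 5 had Tyrobp at 14.23. Of the LPS arrays, replicate 3 of year 1 had Klf2 at 11.71, Mapkapk3 at 6.95, Ifi35 at 6.75, Mdk at 7.36, Plxna2 at 3.66 and Plac8 at 8.62. Replicate 1 of year 2 had Ptx3 at 3.54 and Cldn5 at 2.32, replicate 2 of year 2 had Otx2 at 2.29 and Sema3a at 3.002, and replicate 3_2 of year 4 had Slc4a1 at 4.93 and Cx3cr1 at 13.37.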

How the results depend on the processing

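No gene passed in the pooled comparison under any of the 35 alternatives that were fitted, 18 of which left out 1 array (lowest adjusted p 0.0932 to 0.997, limma). Without the label year term the counts at an unadjusted p under 0.05 were 101 higher, 260 lower and 11 in both arms. The lower genes numbered 375 without label year 2, 427 without its PBS arrays, 454 with a filter at the 60th percentile and 462 without the 3 control arrays with Xist near the floor, a choice made after seeing the data, as was asking each difference to be over 0.5 (206 genes, 51 higher and 155 lower). The count in both arms was 198 with the neuron covariate and 96 with array weights. The difference between arms passed for 18 genes without the LPS and PBS arrays of year 4, 11 with array weights, and 1 each with no filter, the mean of all probe sets and eBayes without trend. Leaving out 1 array gave 0 to 18 genes for that difference, 265 to 464 higher, 489 to 823 lower and 28 to 59 in both arms. Genes of 1 direction numbered 1394 to 1482. That count could not be made without the single LPS or PBS array of year 1 or of year 4, since a within-year difference is then missing. Of 305 counts under alternatives, 283 were within 1.5 times the reported one. The causes were not tested.

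Replicate numbers were not taken as pairing. In year 4 the deviations of same-numbered DAP12KO and UT arrays correlated at -0.01 (replicate 1) and 0.01 (replicate 2). For LPS and PBS of year 2 the correlation was 0.53. With 2 arrays per group there, both replicate numbers give this value by construction, so it counts once. Whether same-numbered arrays of year 2 share an effect was not tested beyond the replicate block. With the number as a replicate block, 323 genes were higher, 647 lower and 44 in both arms at an unadjusted p, and 0 passed in the pooled fit, in both arms or in the difference.

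Of 92 named genes 81 kept their sign in every alternative. Mag turned to -0.10 without the year term and ran from -0.098 to 0.29 leaving out 1 array. Kdm5d turned to 0.15 without the year term, 0.077 with array weights, 0.52 without year 2 or its PBS arrays, 0.95 without the 3 Xist-low arrays and -0.75 to 0.20 leaving out 1 array. Pdgfra turned to 0.16 without year 2, its PBS arrays or the 3 arrays, 0.025 with the neuron covariate and -0.45 to 0.18 leaving out 1 array. Without year 2 or its PBS arrays Adm was 0, Eif2s3y 0.081 and Cx3cr1 -0.042, and without the 3 arrays they were 0, 0.42 and -0.058, with Serping1 at 0.089 and Csf1r at -0.0064. Slc4a1 was -0.042 without the LPS and PBS arrays of year 4 and -0.10 to 0.29 leaving out 1 array, Alas2 0.078 with array weights and -0.39 to 0.021 leaving out 1 array, and Hspa8 0.014 with the mean of all probe sets.

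Without LPS replicate 3_2, 464 genes were higher and 823 lower at an unadjusted p, 46 in both arms, and 0 passed. Year 1 and the LPS comparison of year 4 rest on 1 array per group. Values near the floor carry a sign without a measured size.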

Other observations

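Single genes of other processes gave values not yet described. Slc1a3, a glutamate transporter of radial glia and astrocytes, was at -1.21 in the pooled comparison, and its second probe set was lower in all 4 within-year differences, by -1.75, but Slc1a3 was at -0.60 without the PBS arrays of year 2 and -0.45 with the mean of the neuron markers as a term. Rnpc3, a protein of the minor spliceosome, was at -1.79, and its second probe set was also lower in all 4, by -1.23, while Rnpc3 was at -3.12 with that term. Tgfb2, a secreted growth factor, was at -1.22 and Tgfb1, its relative that keeps microglia in their mature state, at 0.71. Without the PBS arrays of year 2 Tgfb1 was at 0.20, and with the neuron term Tgfb2 was at -0.39 and Tgfb1 at 0.077. None of these passed in the limma fit. Genes of 1 direction were also somewhat brighter, with a median level of 8.38 for the higher and 7.91 for the lower genes against 7.78 over all tested genes. At least 1 array was near the floor in 15.1% of the higher and 19.6% of the lower genes, against 22.4% over all. A difference of 0 has no sign, so genes tied at the lowest value in a year cannot be of 1 direction. These levels and shares thus follow in part from the rule.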
